A study of Mus musculus with 24 samples.

Results

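The Tox family consists of 4 genes, Tox, Tox2, Tox3 and Tox4, whose products are nuclear proteins with a DNA-binding HMG box. The members were picked by gene name, and the 4 were found among the 45237 genes of the deposited count table. Their transcripts were followed in natural killer (NK) cells over the growth of 2 mouse lymphomas. As background, Tox is required for the development of NK cells and other innate lymphoid cells, and in T cells that meet antigen for a long time it is induced by calcineurin and NFAT and drives the exhaustion program. Tox2 is a close relative that takes part in NK cell maturation and, with Tox, in T cell exhaustion, and Tox3 is best known from neurons and breast epithelium. Tox4 is a widely expressed subunit of a nuclear phosphatase complex that acts on RNA polymerase.

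RNA was sequenced from NK cells sorted from the spleen of wild-type C57BL/6J mice (females aged 7 to 9 weeks, per the methods of the study). Tumor-bearing mice had received RMA cells, a T lymphoma line, or RMA-KR cells into the vein. RMA-KR cells are a derivative of RMA in which B2m, and so surface MHC-I, was knocked out and the NKG2D ligand Rae1-β was added with a lentiviral vector that also encodes ZsGreen. Transduced cells were sorted on ZsGreen and subcloned, so the lines may differ in more than the intended changes. The study also followed RMA cells by ZsGreen and describes RMA cells given the empty vector. Its methods do not say whether the RMA cells of the RNA-seq mice carried that vector. The sort kept cells that stained for NKp46 or NK1.1 and lacked CD3, CD5 and T cell receptors.

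The 24 libraries fell into 7 groups. Untreated control mice gave 4 libraries. Mice with RMA tumors gave 3 libraries at the early stage (day 2 after injection), 3 at the intermediate stage (day 4) and 3 at the late stage (day 9). Mice with RMA-KR tumors gave 3 early (day 2), 5 intermediate (day 7) and 3 late (day 14) libraries. Only the early stage is matched in days between the models, so at the other stages the tumor and the day cannot be told apart. Each library is a sample of its own within its group. The p-values below set differences between group means against the spread between samples, which the fit shares over the 7 groups.

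The libraries held from 5138651 to 14863500 reads assigned to genes (median 10489204). Medians were 10072201.5 for the control and 11753788 for the late RMA-KR libraries. Levels are given as normalized CPM, which are counts relative to the library's total, in the usual CPM unit, after scaling by the TMM method. A floor of 3 reads corresponded to between 0.208 and 0.554 normalized CPM, depending on the library. This floor covers counting error only.

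Of the 24 libraries, 4 stood apart, namely control 4 and RMA-KR intermediate 3, 4 and 5. Their summed level of 15 immediate early genes, which respond within minutes to handling and stimulation, lay between 1796 and 2251 normalized CPM, whereas the other libraries lay between 5171 and 12845. The same libraries had the highest sums of 8 type 1 innate lymphoid cell genes, at 190 normalized CPM in control 4 and 229, 334 and 232 in RMA-KR intermediate 3, 4 and 5. They also had the lowest sums of 10 mature NK cell genes, at 6416, 6172, 5525 and 5590 in the same order. Their sums of 9 B cell genes were 32.3, 54.3, 57.2 and 39.3, and late RMA-KR 2 had 41.5. All results on Tox and Tox4 were therefore also computed without these 4 libraries, a choice made after seeing the data. Whether handling or the share of innate lymphoid cells sets these libraries apart was not tested.

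The sorted cells carried the transcripts of NK cells. The 12 NK cell genes summed to between 20334 and 39856 normalized CPM, led by Gzma, which encodes a granzyme. The 9 granulocyte genes reached at most 17.2 normalized CPM and the 8 red blood cell genes 8.86. The 10 macrophage and monocyte genes averaged 13.9 ± 4.21 normalized CPM in control (SD, n = 4) and 63.4 ± 21.2 in late RMA-KR (n = 3), the highest mean of the groups. The 8 plasma cell genes, led by Ighm, averaged 523 ± 87.7 in control and 721 ± 171 in late RMA-KR, where all 5 tested were positive with a median log2 fold change of 3.59. The 4 tested macrophage and monocyte genes had a median of 2.54 there, with 3 positive. None of the tested genes of these last lists passed in late RMA-KR against control in edgeR's test (0 of 4 and 0 of 5), beside 1.22% of all genes. With so few genes tested, counts of 0 do not show that these transcripts stayed level.

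The 4 genes differ in size and surroundings. On mouse assembly GRCm38 (mm10), Tox lies on the minus strand at chr4:6686353-6991557, and its span of 305.2 kb makes it by far the longest of the family. Its principal transcript has 9 exons and a coding sequence of 1578 bases. Tox2 lies on the plus strand at chr2:163203125-163324170, with 9 exons and 1566 coding bases. Tox3 lies on the minus strand at chr8:90247040-90348343, with 7 exons and 1725 coding bases. Tox4 lies on the plus strand at chr14:52279146-52296401, with 10 exons and 1857 coding bases within 17.3 kb.

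The members share the region that encodes the basic stretch before the HMG box and the beginning of the box itself. Among stretches of Tox coding sequence of the length of a read (50 bases) that lie within 1 exon, the stretch below had the fewest mismatches summed over the 3 other members, compared without gaps. The sequences are given 5′ to 3′ on the coding strand, with capitals marking the bases that differ from Tox. They lie in coding exons: chr4:6722266-6722315 on the minus strand (exon 5 of 9) for Tox, chr2:163315845-163315894 on the plus strand (exon 5 of 9) for Tox2, chr8:90254403-90254452 on the minus strand (exon 5 of 7) for Tox3 and chr14:52287354-52287403 on the plus strand (exon 6 of 10) for Tox4.
Tox: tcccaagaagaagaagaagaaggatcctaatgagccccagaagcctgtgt
Tox2: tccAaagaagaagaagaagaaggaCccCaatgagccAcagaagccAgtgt
Tox3: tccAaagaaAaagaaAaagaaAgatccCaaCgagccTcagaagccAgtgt
Tox4: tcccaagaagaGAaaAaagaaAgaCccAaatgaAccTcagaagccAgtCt
Tox2 differs from Tox at 5 of these 50 bases, Tox3 at 8 and Tox4 at 10.

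Reads were 50 bases long, and no run of 50 bases was common to the transcripts of any pair of members (0 in all pairs). The longest run common to the coding sequences of Tox and another member was 24 bases, with Tox3. Overlapping genes are a different matter. Tox shares 260 exon bases (3.42% of its exons) with Gm11802 on the opposite strand, a gene with 0 to 15 reads per library. Tox4 shares 1128 exon bases (16.2%) with Mettl3 and Rab2b, which lie on the opposite strand and had 238 to 1289 and 0 to 284 reads per library. The strand setting of the counting is not given in the sources used here, so the values of Tox4 carry this uncertainty.

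The family was represented by Tox and Tox4. Tox had 405 to 1858 reads in every library and Tox4 712 to 2532. Tox2 had 45 reads in all 24 libraries together and Tox3 77, and each had 0 reads in 13 libraries. The filter on low counts kept 3 members for testing, Tox, Tox3 and Tox4. Tox3 was kept although 64 of its 77 reads came from 3 libraries. That Tox3 did not pass in the tests below therefore does not show an unchanged level, and counts of tested members rest on Tox and Tox4. Tox2 did not pass the filter on low counts.

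Tox, the member tied to NK cell development and to exhaustion, stood in the control libraries at 74.9, 65.3, 62.4 and 76.2 normalized CPM, a mean of 69.7 ± 6.87 (SD, n = 4). In the RMA course the early libraries had 80.2, 78.4 and 60.3 (72.9 ± 11.003, n = 3). The intermediate RMA libraries had 51.2, 84.4 and 52.4 (62.7 ± 18.9, n = 3). These values lie on both sides of the controls, and each RMA group overlaps them. The late RMA libraries had 92.5, 69.6 and 63.6 normalized CPM (75.2 ± 15.3, n = 3), again around the control range. Over the RMA course, 4 of the 9 libraries were above every control and 3 were below every control.

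In the RMA-KR course Tox was higher. The early libraries had 84.8, 138.0 and 119.6 normalized CPM (114 ± 27.0, n = 3). The intermediate libraries had 91.1, 79.8, 100.4, 103.6 and 95.8 (94.1 ± 9.31, n = 5). The late libraries had 165.4, 120.2 and 141.9 (142 ± 22.6, n = 3). All 11 RMA-KR libraries were above every control library, a pattern that 0.135% of the 17097 tested genes (23 genes) showed. The 3 late libraries were above every control as well as every RMA library, where 5.88% of all tested genes had late RMA-KR libraries above every control. In bulk RNA, fewer cells of a type and less RNA per cell cannot be told apart, so these levels do not say whether more cells contained Tox transcripts or each cell contained more.

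**Figure D1:**
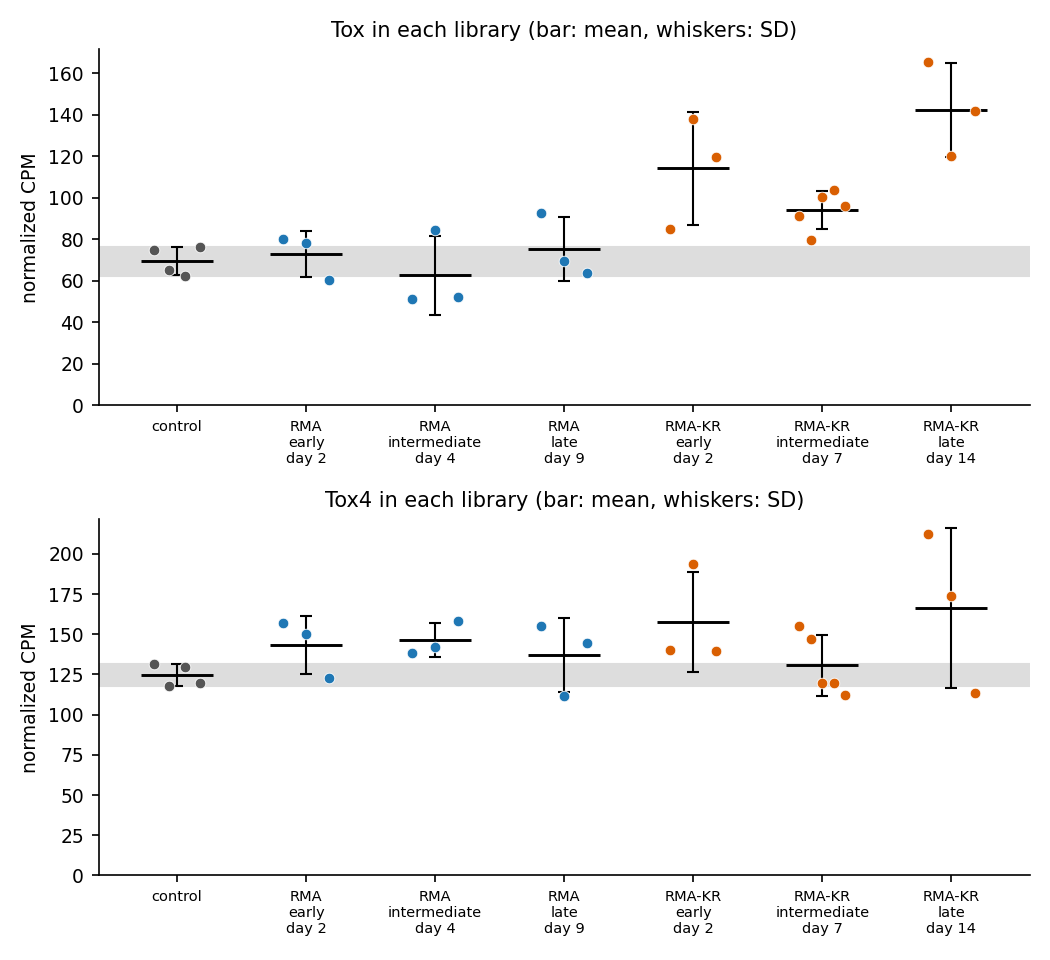
Tox and Tox4 in each of the 24 libraries, in normalized CPM, by group along the horizontal axis; bars are means, whiskers the SD, and the gray band the range of the 4 controls. For Tox all 11 RMA-KR libraries lie above the band, while RMA libraries lie on both sides of it; for Tox4 libraries of each course lie above, within and below the band.

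Ordered by mean level, Tox ran from intermediate RMA over control, early RMA, late RMA, intermediate RMA-KR and early RMA-KR to late RMA-KR. Neighbors in this order overlapped in their libraries throughout. The steps among the 4 lowest groups were 7.00, 3.28 and 2.29 normalized CPM and smaller than the larger SD of the groups they separate. From late RMA to intermediate RMA-KR the step was 18.9 normalized CPM, above the larger SD of 15.3. The step from intermediate to early RMA-KR was 19.98 with a larger SD of 27.0, and the step to late RMA-KR was 28.4 beside the same SD.

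The test across all 7 groups asked whether Tox differed anywhere. It did (adjusted p = 0.00699, edgeR quasi-likelihood test, Benjamini-Hochberg over 17097 genes), and a result is said to pass where this adjusted p is under 0.05. Among all genes 5.69% passed this test. Tox was the only member of the 3 tested that did, with adjusted p-values of 0.572 for Tox4 and 0.299 for Tox3 in the same test. Tox3 had too few reads for its value to tell whether it differed. Without the 4 libraries that stood apart, the adjusted p for Tox was 0.0197, and over 6 alternatives it lay between 1.12e-06 and 0.0239.

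The comparisons with control asked at which stage of either tumor the family differed from NK cells of tumor-free mice. They share the 4 control libraries and are not independent of each other. In late RMA-KR, Tox rose by a log2 fold change of 1.03 ± 0.21 (SE; 95% confidence interval 0.59 to 1.47), or 2.05-fold, with an adjusted p of 0.0131 (edgeR quasi-likelihood test, Benjamini-Hochberg). It was 1 of 3 tested members to pass, where 1.22% of all genes did. The result rested on few mice. Tox had a log2 fold change of 0.99 and an adjusted p of 0.0529 without control 2, 0.98 and 0.0540 without control 3, and 0.90 and 0.101 without late RMA-KR 1. With all genes kept whatever their counts, the adjusted p of the same edgeR test was 0.0711, and over 8 alternatives it lay between 0.000207 and this value. Without the 4 libraries that stood apart, the log2 fold change was 1.12 and the adjusted p 0.0419.

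At the earlier RMA-KR stages Tox had positive log2 fold changes that did not pass. The early stage gave 0.71 ± 0.21 (SE; interval 0.27 to 1.15; unadjusted p = 0.00269, adjusted p = 0.254, edgeR quasi-likelihood test), and 0 of the 3 tested members passed beside 0.0994% of all genes. DESeq2 with default settings put this comparison past the threshold (adjusted p = 0.0412), and over 8 alternatives the adjusted p lay between this value and 0.602. The intermediate stage gave 0.43 ± 0.19 (interval 0.04 to 0.83; adjusted p = 0.795 in edgeR's test), and 0 members passed beside 0.0175% of all genes. Since 3 of the 5 intermediate libraries and 1 control belong to those that stood apart, the comparison was also made within each kind. Tox averaged 99.9 normalized CPM in intermediate RMA-KR 3, 4 and 5 against 76.2 in control 4, a ratio of 1.31. In the remaining libraries it averaged 85.5 in 2 intermediate against 67.5 in 3 control libraries, a ratio of 1.27.

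RMA tumors left Tox close to control. Its log2 fold changes were 0.07 (interval -0.38 to 0.51) at the early, -0.15 (-0.60 to 0.29) at the intermediate and 0.11 (-0.33 to 0.55) at the late stage. The adjusted p-values of edgeR's quasi-likelihood test were 0.980, 0.783 and 0.896. Of the 3 tested members 0 passed at each stage, beside 0% of all genes at the early, 2.35% at the intermediate and 2.66% at the late stage. At the early stage no gene passed in edgeR's test, while 1204 genes had an unadjusted p under 0.05, and DESeq2 called 76 genes with default settings and 32 with betaPrior=TRUE.

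**Figure D2:**
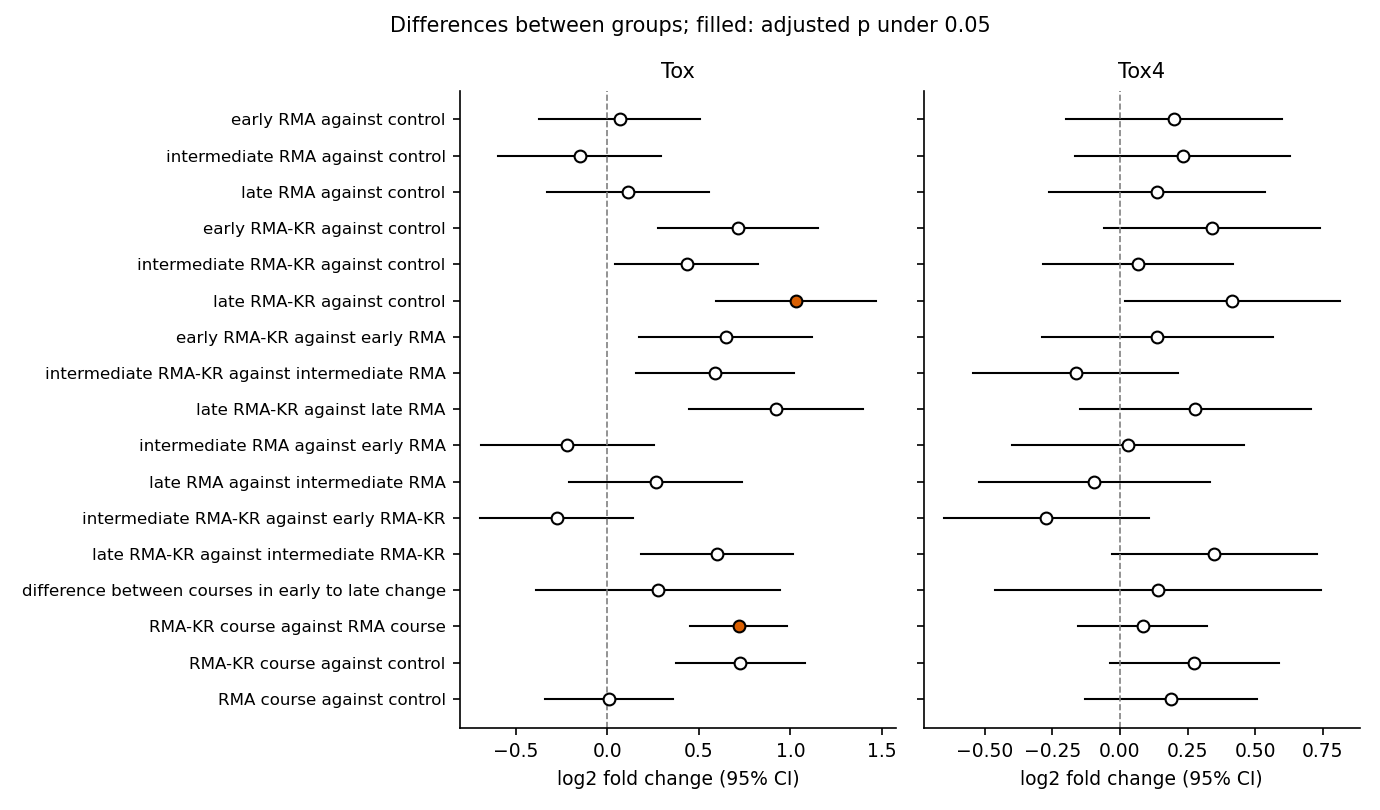
Log2 fold changes of Tox and Tox4 in 17 comparisons, with 95% confidence intervals as lines; filled points have an adjusted p under 0.05 in edgeR's quasi-likelihood test. Filled points appear for Tox in late RMA-KR against control (1.03) and in the RMA-KR course against the RMA course (0.72), and none appears for Tox4.

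The direct comparison of the tumors asked whether Tox differed between NK cells that face RMA-KR and those that face RMA. At day 2, the only matched day, the log2 fold change of RMA-KR against RMA was 0.65 ± 0.23 (SE; interval 0.17 to 1.12; unadjusted p = 0.00972, adjusted p = 0.290, edgeR quasi-likelihood test). Early RMA-KR 1, at 84.8 normalized CPM, was still above the highest early RMA library at 80.2, so the libraries of these groups did not overlap. At the intermediate stage the log2 fold change was 0.59 ± 0.21 (interval 0.16 to 1.02; adjusted p = 0.283, edgeR), and without the libraries that stood apart it was 0.46. The intermediate groups overlapped, with intermediate RMA 2 at 84.4 and intermediate RMA-KR 2 at 79.8 normalized CPM. At the late stage it was 0.92 ± 0.23 (interval 0.45 to 1.396), and by its unadjusted p of 0.000547 Tox ranked 11 of 17097 genes in edgeR's test. Its adjusted p there was 0.655.

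Of the 3 tested members 0 passed in each of these comparisons, beside 0.339% of all genes at the early, 0.643% at the intermediate and 0% at the late stage. At the late stage edgeR's test called 0 genes, 1249 genes had an unadjusted p under 0.05, and DESeq2 called 67 with default settings and 16 with betaPrior=TRUE. Tox was past the threshold with both DESeq2 settings, with adjusted p-values of 0.0187 and 0.0461, and over 8 alternatives they lay between 0.0187 and 0.895. The late groups did not overlap: the lowest RMA-KR library had 120.2 and the highest RMA library 92.5 normalized CPM.

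Because Tox was higher at each RMA-KR stage, the mean of the 3 RMA-KR groups was also set against the mean of the 3 RMA groups. This comparison was chosen after seeing the data, for the pattern that it tests, so its p-values and rank are no independent support. Its intermediate and late stages also differ in day between the tumors. Tox rose by a log2 fold change of 0.72 ± 0.13 (SE; interval 0.45 to 0.98), or 1.64-fold, with an adjusted p of 0.00935 (edgeR quasi-likelihood test, Benjamini-Hochberg). It ranked 20 by p, and it was 1 of 3 tested members to pass, beside 0.755% of all genes. Leaving out any of the 20 tumor libraries gave 0.65 to 0.79 and adjusted p-values of 0.00562 to 0.0375. Without the 4 libraries that stood apart, it was 0.68 with an adjusted p of 0.0232, and over 8 alternatives the adjusted p lay between 9.75e-06 and 0.0328.

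Against control, the RMA-KR course gave Tox a log2 fold change of 0.73 with an SE of 0.17 that did not pass (adjusted p = 0.106, edgeR quasi-likelihood test), and 0 members passed beside 0.0936% of all genes. The RMA course gave 0.01 ± 0.17 (interval -0.34 to 0.36; adjusted p = 0.994, edgeR), and 0 members passed beside 1.23% of all genes. DESeq2 with default settings put the RMA-KR course past the threshold against control (adjusted p = 0.00347), and over 8 alternatives the adjusted p lay between 0.00285 and 0.253. Both comparisons were chosen after seeing the data and use the same controls.

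Within a course, no step of Tox passed. In the RMA-KR course, Tox had a log2 fold change of -0.28 ± 0.20 (SE) from early to intermediate and 0.60 ± 0.20 from intermediate to late, with adjusted p-values of 0.582 and 0.295 in edgeR's quasi-likelihood test. In the RMA course it had -0.22 ± 0.23 and 0.26 ± 0.23, with adjusted p-values of 0.623 and 1. Of the 3 tested members 0 passed in these steps, beside 0.632% and 0.328% of all genes in the RMA-KR course and 2.33% and 0% in the RMA course. For the last RMA step edgeR called 0 genes, 763 had an unadjusted p under 0.05, and DESeq2 called 41 with default settings and 0 with betaPrior=TRUE.

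The difference between the courses in the change from early to late was 0.28 ± 0.32 (SE; interval -0.39 to 0.94) for Tox, with an adjusted p of 0.838 (edgeR quasi-likelihood test). It was also 0.14 ± 0.29 for Tox4. Of the 3 tested members 0 passed, beside 0% of all genes. Here edgeR called 0 genes, 1777 had an unadjusted p under 0.05, and DESeq2 called 159 with default settings and 78 with betaPrior=TRUE. The interval for Tox includes 0 and is wide, so these libraries do not tell whether Tox takes a different time course in the 2 models.

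Tox4, the phosphatase complex subunit, stood in the control libraries at 131.6, 118.1, 129.9 and 119.6 normalized CPM (125 ± 6.93, SD, n = 4). In RMA it had 157.3, 150.01 and 123.1 early, 138.7, 142.3 and 158.5 intermediate and 155.2, 111.6 and 144.7 late. Means were 143 ± 18.0, 147 ± 10.6 and 137 ± 22.8 (n = 3 each). The intermediate RMA libraries all lay above the controls, while the early and late ones overlapped them.

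In RMA-KR, Tox4 had 140.0, 193.9 and 139.9 normalized CPM early (158 ± 31.1, n = 3). The intermediate libraries had 155.1, 147.0, 119.7, 119.6 and 112.0 (131 ± 19.0, n = 5), where the 3 lower values belong to the libraries that stood apart. The late libraries had 212.4, 173.7 and 113.2 (166 ± 49.99, n = 3). The early libraries were all above the controls. Late RMA-KR 1 was the highest and late RMA-KR 3 lay below every control, so the late group covered nearly the whole range of Tox4. Over the courses, 7 of 9 RMA and 7 of 11 RMA-KR libraries were above every control.

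Ordered by mean level, Tox4 ran from control over intermediate RMA-KR, late RMA, early RMA, intermediate RMA and early RMA-KR to late RMA-KR, and each step was smaller than the larger SD of the groups it separates. Its largest log2 fold change against control was 0.42 ± 0.19 (SE; interval 0.02 to 0.81) in late RMA-KR (adjusted p = 0.339, edgeR quasi-likelihood test). In the RMA-KR course against the RMA course it was 0.08 ± 0.12 (interval -0.15 to 0.32; adjusted p = 0.833). In 17 comparisons Tox4 passed in none, under any tool or setting tried. Of the overlapping genes, Mettl3, which encodes an RNA methyltransferase, had a log2 fold change of -0.49 and Rab2b, a small GTPase gene, -0.85 in late RMA-KR against control, with adjusted p-values of 0.516 and 0.768 in the same edgeR test.

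Levels of the members can be compared only per length. Per kilobase of all annotated exons, Tox had 9.16 ± 0.90 normalized CPM in controls (SD, n = 4) and Tox4 had 18.0 ± 0.997. In late RMA-KR Tox had 18.7 ± 2.97 and Tox4 23.95 ± 7.19 (n = 3). Tox was thus lower per length than Tox4 in controls, and the groups of the pair overlapped in late RMA-KR. Per kilobase of the principal transcript alone, the order of the means depended on the group: Tox had 17.6 ± 1.73 and Tox4 23.3 ± 1.30 in controls, and 36.0 ± 5.71 and 31.1 ± 9.34 in late RMA-KR. The late RMA-KR libraries overlapped here too, with Tox at 30.3 to 41.8 and Tox4 at 21.2 to 39.7.

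Tox2 and Tox3 were at the limit of detection. Of the 45 reads of Tox2, 17 came from early RMA 3 and 9 from control 3, and no other library had more than 4. The 3 late RMA-KR libraries had 0 reads each. Tox3 had 27 reads in intermediate RMA-KR 5, 20 in early RMA-KR 1 and 17 in late RMA 3, so that 64 of its 77 reads came from 3 libraries of different groups. Elsewhere it had at most 4 reads, and intermediate RMA had 0 in all 3 libraries. The smallest adjusted p of Tox3 over 17 comparisons was 0.347 (edgeR quasi-likelihood test), and no fold change is given for either gene, since most libraries are at or under the floor.

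**Figure D3:**
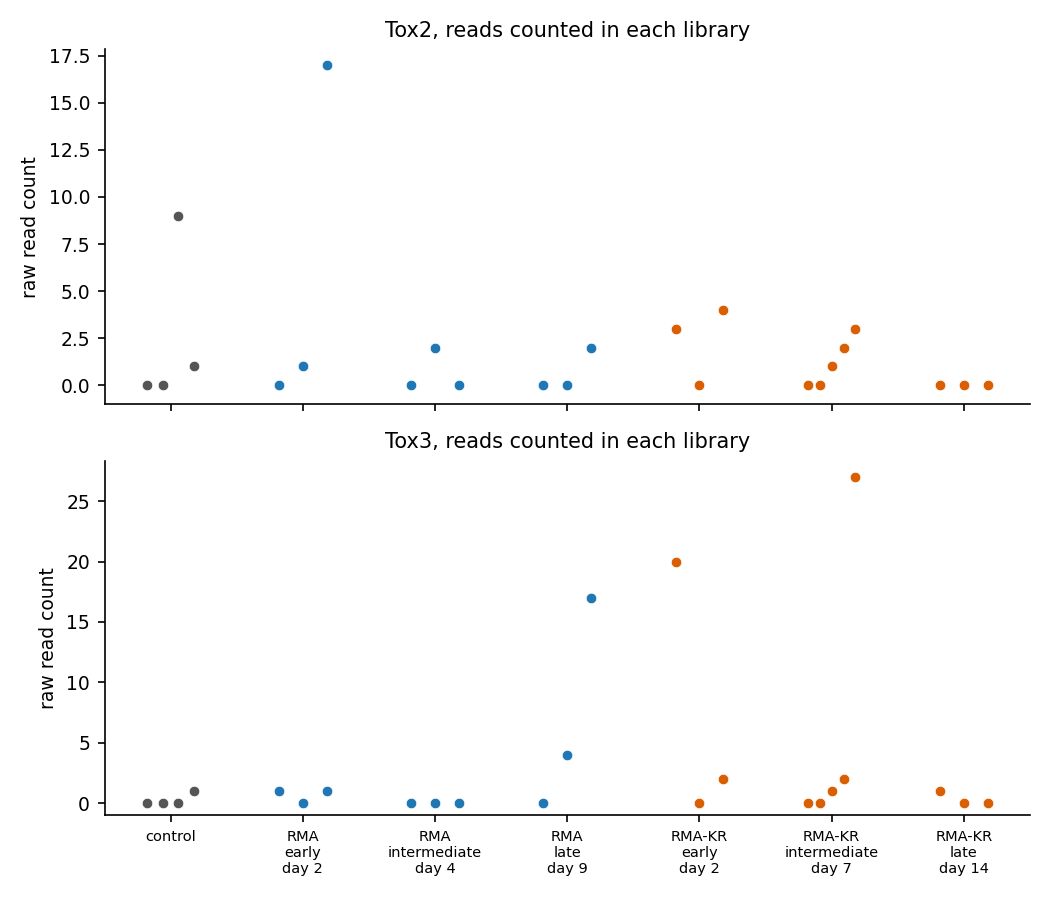
Raw reads of Tox2 and Tox3 in each of the 24 libraries by group, each point a library. Most points lie at or near 0; Tox2 stands out in early RMA 3 (17) and control 3 (9), and Tox3 in intermediate RMA-KR 5 (27), early RMA-KR 1 (20) and late RMA 3 (17).

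RMA is a T lymphoma, and T cells transcribe Tox, so the T cell genes of the sorted cells were set beside it. The 16 T cell and T lymphoma genes summed to between 839 and 886 normalized CPM in control, 944 and 1169 in late RMA and 812 and 1003 in late RMA-KR libraries. They summed to between 792 and 1058 in early RMA-KR libraries. In late RMA-KR against control the median log2 fold change of the list was -0.32, with 5 of 13 tested genes positive, beside -0.18 and 6975 of 17097 for all genes. In early and intermediate RMA-KR against control the list had 0.10 and 0.08, each with 8 positive, and all genes 0.0034 and 0.01. Against RMA at the early, intermediate and late stages, its medians were 0.16, 0.55 and -0.29, with 8, 9 and 2 positive. For all genes they were 0.03, 0.23 and -0.06. In the RMA-KR course against the RMA course the list had -0.09 with 5 positive, beside 0.09 for all genes. Cd247, a signaling chain that NK cells also use, was the most abundant gene at a mean of 328 normalized CPM over the libraries, followed by the T cell receptor genes Trbc1 at 286 and Trbc2 at 103 and by Cd28 at 106. Thy1 averaged 34.8, Cd3g 10.3, Trac 10.01 and Cd3d 8.36. Bcl11b averaged 4.68, with up to 12.3 in a library. Cd5, which the sort selected against, averaged 1.21, with up to 23.5 in an early RMA library. Cd3e, Cd4, Cd8a, Cd8b1, Cd6 and Themis averaged under 1 normalized CPM, with up to 7.50 in a library. Of the 13 tested genes of this list 0 passed in any comparison of edgeR's test, where between 0% and 2.66% of all genes passed. A count of 0 is near that share and does not show that these transcripts stayed level. Whether T cell or lymphoma RNA adds to Tox was not tested.

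The 20 genes of dividing cells summed to between 932 and 1280 normalized CPM in control libraries. They reached 5377 to 8120 in intermediate RMA and 3784 to 7168 in late RMA, and 1419 to 3378 in intermediate and 2997 to 6164 in late RMA-KR. In RMA, 19 of the 20 rose against control at the intermediate and 16 at the late stage, beside 2.35% and 2.66% of all genes that passed, and 13 rose in late RMA-KR, where Tox rose and 1.22% of all genes passed. In the RMA-KR course against the RMA course, where Tox rose too, 0 of the 20 were positive and 2 fell, with a median of -1.01, beside 0.755% of all genes that passed. In intermediate RMA-KR against intermediate RMA 11 fell, where 0.643% of all genes passed. At the intermediate RMA-KR stage 0 of the 20 passed in edgeR's test, which called 3 genes in all there. Whether division and Tox are linked was not tested.

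The lists of NK cell maturation were set beside Tox as well. The immature list was led by Tnfrsf9, at a mean of 474 normalized CPM over the libraries, and the mature list by Itgb2, at 3971. Sums led by single genes need not follow the share of immature or mature cells. The 10 immature NK cell genes averaged 1336 ± 346 normalized CPM in control (SD, n = 4), 2183 ± 636 in intermediate (n = 5) and 1832 ± 26.8 in late RMA-KR (n = 3). In intermediate and late RMA they averaged 1515 ± 131 and 1580 ± 324 (n = 3 each). The intermediate group holds the 3 libraries that stood apart, at 2609 to 2663. In the RMA-KR course against the RMA course, where Tox rose, 2 of the 10 rose in edgeR's test and 8 were positive, with a median log2 fold change of 0.49, beside 0.755% of all genes that passed and 9784 of 17097 that were positive. Of the 10 mature NK cell genes 1 fell in that comparison, and their median was -0.22. For all genes the median was 0.09. Whether the share of immature cells sets the level of Tox was not tested.

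**Figure D4:**
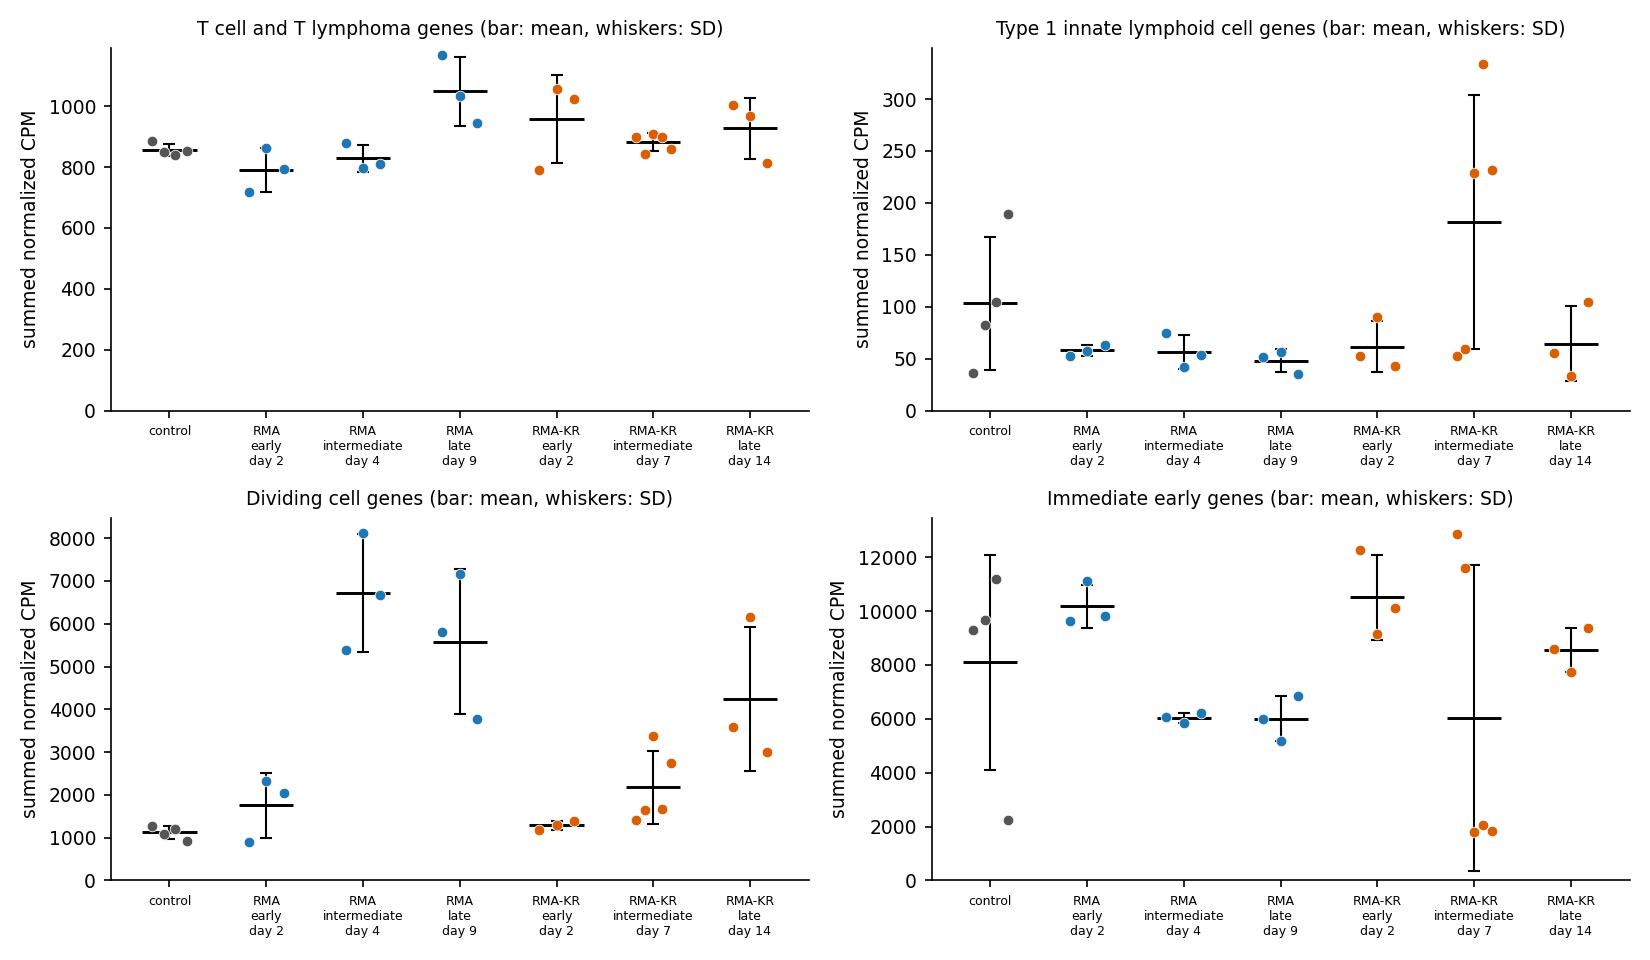
Summed normalized CPM of 4 gene lists in each of the 24 libraries by group; bars are means and whiskers the SD. T cell genes stay within 717 and 1169, dividing cell genes are highest in intermediate and late RMA, and control 4 and RMA-KR intermediate 3, 4 and 5 have low immediate early and high innate lymphoid sums.

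The genes whose levels were most like those of Tox over the 24 libraries were Pabpc1, Sh2d2a, mt-Cytb, Mbnl1 and Krtcap3. Among 8371 genes with a mean of at least 10 normalized CPM, their Pearson correlations with Tox on the log2 scale were 0.80, 0.78, 0.77, 0.71 and 0.71. These numbers are descriptions over libraries that share groups. Pabpc1 encodes a poly(A)-binding protein and Sh2d2a the T cell adaptor TSAd, mt-Cytb is a mitochondrial respiratory chain gene, and Mbnl1 encodes a splicing regulator.

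Their levels are given as descriptions without a test, because the genes were chosen for following Tox over the same libraries. Sh2d2a had 544 ± 99.9 normalized CPM in control (SD, n = 4), 903 ± 82.1 in late RMA (n = 3) and 1314 ± 488 in late RMA-KR (n = 3). For Pabpc1 these means were 158 ± 21.8, 191 ± 41.8 and 274 ± 11.4.

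**Figure D5:**
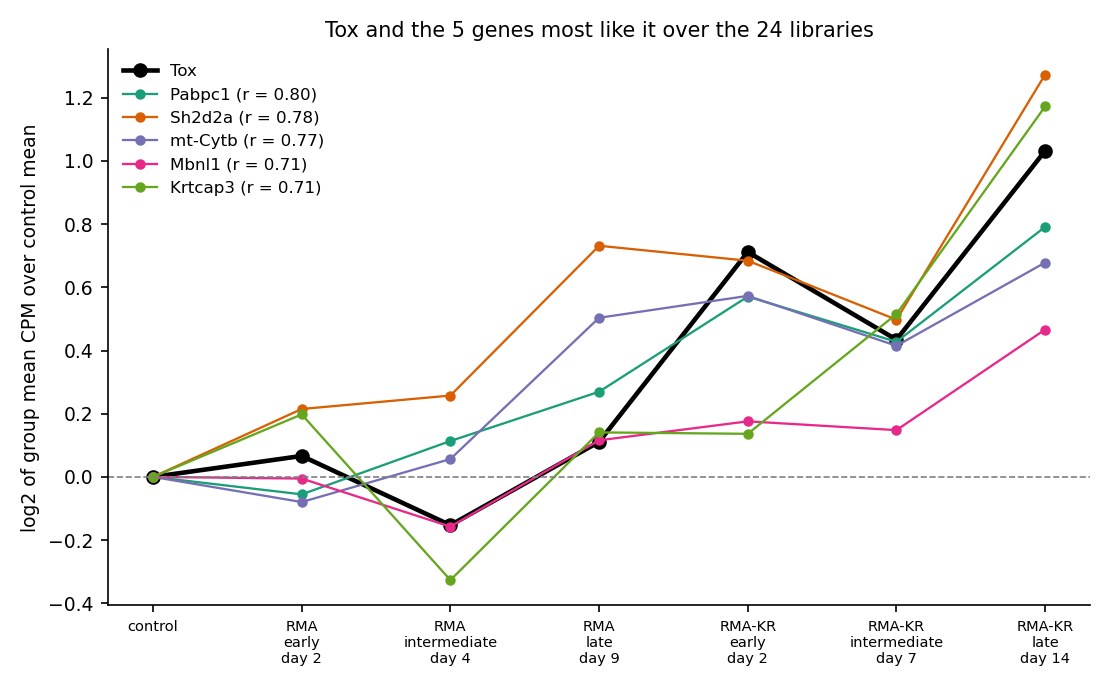
Group means of Tox and the 5 genes most like it, as log2 of the mean normalized CPM over the control mean, by group; each line is a gene, and the legend gives its Pearson correlation with Tox over 24 libraries. The lines are highest in late RMA-KR.

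Around the family, 6 lists with 95 genes were examined, of which 91 were tested. The first holds the calcineurin, NFAT and NR4A genes, which lie upstream of Tox in T cells. Of its 14 genes, 0 passed in any comparison of RMA-KR with control or with RMA, where between 0% and 1.22% of all genes passed. Its median log2 fold change in late RMA-KR against control was -0.0040, beside -0.18 for all genes. The NFAT gene Nfatc2 was the only one to pass against control (1 of 14 in late RMA, beside 2.66% of all genes). It fell by 1.25 on the log2 scale in late RMA (adjusted p = 0.0211, edgeR quasi-likelihood test), from 64.1 ± 12.1 (SD, n = 4) to 27.0 ± 1.63 normalized CPM (n = 3). In late RMA-KR, Nfatc2 averaged 35.5 ± 8.24 normalized CPM (n = 3), at a log2 fold change of -0.85 that did not pass (adjusted p = 0.206, edgeR).

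The list of exhaustion genes tied to Tox in T cells had 20 of 21 genes tested, without Pdcd1, which had too few reads. In late RMA-KR against control its median log2 fold change was 0.57 and 17 of 20 were positive, while for all genes the median was -0.18 and 6975 of 17097 were positive. In late RMA against control its median was 0.12 with 12 positive. At the early RMA-KR stage, where Tox had 0.71, the median of the list was -0.26 and 7 were positive. At the intermediate RMA-KR stage it was 0.59 with 14 positive, beside 0.01 for all genes. Both groups of that comparison hold libraries that stood apart, and their part in this median was not tested. Against late RMA, the late RMA-KR median was 0.92 with 17 positive, beside -0.06 for all genes, and no gene passed.

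Tigit, an inhibitory receptor gene, was the member of this list that passed against control, beside 1.22% of all genes in late RMA-KR, 2.66% in late RMA and 2.35% in intermediate RMA. It rose by 3.09 on the log2 scale in late RMA-KR (SE 0.38, adjusted p = 0.000251, edgeR quasi-likelihood test), 2.22 in late RMA (SE 0.37, adjusted p = 0.00149) and 1.85 in intermediate RMA (SE 0.37, adjusted p = 0.00622). Its levels were 84.4 ± 30.3 normalized CPM in control (SD, n = 4), 716 ± 485 in late RMA-KR and 393 ± 113 in late RMA (n = 3 each).

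Of the transcription factors of NK and innate lymphoid cells, 19 of 20 were tested, and 2 passed against control, both in late RMA, where 2.66% of all genes passed. Eomes, which guides NK cell maturation, fell by 0.75 on the log2 scale (adjusted p = 0.0352, edgeR quasi-likelihood test), from 306 ± 61.6 (SD, n = 4) to 182 ± 9.53 normalized CPM (n = 3). Klf2, which keeps lymphocytes quiescent, fell by 1.15 (adjusted p = 0.0126, edgeR), from 204 ± 41.9 to 92.1 ± 6.14. In late RMA-KR, Klf2 had -0.997 with an adjusted p of 0.0532, and Eomes had -0.24 with 0.583. The list's median in late RMA-KR was -0.06, beside -0.18 for all genes.

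Ets1, a factor needed for NK cell development, is named here after its values were seen. It averaged 1193 ± 163 normalized CPM in control (SD, n = 4), 1865 ± 217 in early (n = 3), 1120 ± 264 in intermediate (n = 5) and 1888 ± 352 in late RMA-KR (n = 3). It fell by 0.74 from early to intermediate and rose by 0.75 from intermediate to late RMA-KR (adjusted p = 0.0382 and 0.0446, edgeR quasi-likelihood test). In the RMA-KR course against the RMA course Ets1 rose by 0.48 (adjusted p = 0.0277, edgeR). The intermediate group holds the 3 libraries that stood apart, and their part in these steps was not tested.

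Of 10 genes of the HBO1 histone acetyltransferase complex, a chromatin partner of Tox, 0 passed in any comparison between groups, where between 0% and 2.66% of all genes passed, and their median in late RMA-KR against control was -0.13, beside -0.18 for all genes. Of 8 genes of the phosphatase complex of Tox4 and its targets, 1 passed in late RMA against control, beside 2.66% of all genes. It was Ppp1ca, a catalytic subunit, which rose by 0.76 (adjusted p = 0.00857, edgeR quasi-likelihood test), from 866 ± 135 (SD, n = 4) to 1471 ± 259 normalized CPM (n = 3). Polr2a, the large subunit of RNA polymerase II, was higher in early RMA-KR than in early RMA, at 154 ± 12.7 against 53.3 ± 14.4 normalized CPM (n = 3 each), a log2 fold change of 1.54 (adjusted p = 0.0382, edgeR). In that comparison 1 of the 8 passed, beside 0.339% of all genes. The control mean of Polr2a was 132 ± 34.3 (n = 4), and early RMA against control did not pass (log2 fold change -1.31, adjusted p = 0.258, edgeR). The list's median in late RMA-KR against control was -0.29, beside -0.18 for all genes.

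Of 24 other genes with HMG boxes, 22 were tested. Hmgb2, a chromatin protein abundant in dividing cells, rose by 1.45 in intermediate and 1.67 in late RMA on the log2 scale (adjusted p = 0.0124 and 0.00401, edgeR quasi-likelihood test). At each of these stages 1 of the 22 passed, beside 2.35% and 2.66% of all genes. Hmgb2 was lower in intermediate RMA-KR than in intermediate RMA, at 47.9 ± 15.9 (SD, n = 5) against 145 ± 20.1 normalized CPM (n = 3), a log2 fold change of -1.59 (adjusted p = 0.00812, edgeR). In that comparison 0.643% of all genes passed. The median of the list in late RMA-KR against control was 0.19, with 12 of 22 positive, beside -0.18 and 6975 of 17097 for all genes. In late RMA-KR against control Hmgb2 had 1.24 and did not pass (adjusted p = 0.0540, edgeR). From intermediate to late RMA-KR it rose by 1.38 (adjusted p = 0.0403, edgeR), where 0.328% of all genes passed. The intermediate RMA-KR group holds libraries that stood apart, and their part in these values of Hmgb2 was not tested.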

How the data were processed

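RNA-seq of sorted splenic NK cells gave 24 libraries in 7 groups, taken from the sample labels. The authors trimmed reads with cutadapt 1.10, discarded ribosomal reads with Bowtie2 2.2.8, aligned the rest to mm10 with STAR 2.5.3a and counted them per Ensembl gene with HTSeq 0.6.1p1 in union mode, which drops reads that overlap several genes. The deposited values used here are raw read counts per gene, not normalized. Of the 112 columns of the table, 24 count columns were used; 48 other columns with values per library and 29 columns of the authors' own comparisons (fold changes and p-values) were not used.

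The analysis used edgeR 4.0.16 and DESeq2 1.42.0 under R 4.3.3. Genes were kept with filterByExpr on the 7 groups (17097 genes), scaled with TMM and fitted with 1 mean per group over all 24 libraries (robust quasi-likelihood test, Benjamini-Hochberg over all genes tested, threshold 0.05). An SE is the absolute log2 fold change divided by the square root of F, and intervals are 95% intervals. Log2 CPM for likeness used a prior count of 2. The procedure was also run on simulated data, whose outcome is not reported here. Depth ran from 5138651 to 14863500 reads, and counting error was small beside the spread between mice: chi-square per degree of freedom within a group was 15.9 to 91.4 over 31 pairs, so no library was counted as a duplicate, and the biological coefficient of variation was 0.214 for Tox and 0.197 for Tox4.

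Named genes are the 4 members, the 5 genes most like Tox and, of each related list, at most 4 genes that passed against control or between the tumors. Also named are the genes that overlap Tox or Tox4, genes of the T cell list, the most abundant gene of some marker lists and the untested Pdcd1. The members and lists were chosen with earlier results of these data known. Alternatives were DESeq2 size factors in edgeR, DESeq2 1.42.0 with default settings and with betaPrior=TRUE (the setting of the study, which used version 1.16.1), no filter, a filter of at least 10 counts throughout, a block for the replicate number, a fit of just the compared groups, and each library left out in turn. The comparisons of whole courses, and leaving out the 4 libraries that stood apart, were chosen after seeing the data. Exon positions come from the GENCODE annotation of GRCm38.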

Additional observations from a re-analysis of the deposited data

Results flagged for a closer look

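Among the control and the intermediate RMA-KR libraries, the highest or lowest library was compared with the rest of its group. This was done for the 4 members, the marker sums and the depth, 34 groups of values in all. Chance alone picks out about 1 in 20 where values are not tied. For Tox2 and Tox3, whose counts are mostly 0, reads in a single library can be enough for a flag, so that rate does not hold. For Tox2, control 3 had 0.948 normalized CPM (9 reads) and the other control libraries had at most 1 read. For Tox3, control 4 had 0.0893 normalized CPM, which is 1 read beside 0 in the other 3 controls. For Tox3, intermediate RMA-KR 5 had 2.65 normalized CPM (27 reads), while the other 4 libraries of that group had at most 2 reads. The difference between courses in Tox was also flagged: over the 3 stages together, the RMA-KR course was above the RMA course by a log2 fold change of 0.72 (adjusted p = 0.00935, edgeR quasi-likelihood test). This comparison was chosen after Tox had been seen higher at each RMA-KR stage, and its later stages differ in day. At day 2, the only matched day, Tox did not pass (adjusted p = 0.290, same test).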

How the results depend on the processing

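Under other settings Tox kept its direction and its side of the threshold in 134 results, reversed in 1, gained a call in 6 and lost it in 1. With a library left out these were 166 kept, 7 reversed and 3 lost. Tox4 kept 135 and reversed in 7, and with a library left out kept 170 and reversed in 6. The log2 fold change of Tox in late RMA-KR against control ran from 1.01 to 1.12 over 8 other settings; it passed in all but the one without a filter (1.04, adjusted p = 0.0711). Leaving out a library gave 0.90 to 1.17, with adjusted p-values up to 0.101. The call was lost without control 2, control 3 or late RMA-KR 1. The RMA-KR course against the RMA course passed in all 8 settings (0.68 to 0.73) and with each of the 20 tumor libraries left out. DESeq2 moved 3 results of Tox past the threshold, with default settings and with betaPrior=TRUE: early RMA-KR against control (0.75 and 0.73, adjusted p = 0.0412 and 0.0422), late RMA-KR against late RMA (0.94 and 0.91, adjusted p = 0.0187 and 0.0461) and the RMA-KR course against control (0.75 and 0.72, adjusted p = 0.00347 and 0.00285). The cause was not tested.

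Reversals concerned values that passed under no setting. For Tox, the RMA course against control was -1.9e-05 with at least 10 counts in every library. With a library left out it ran from -0.0586 to 0.0840, intermediate RMA against control from -0.39 to 0.0085 and late RMA against control from -0.0331 to 0.26. For Tox4, intermediate against early RMA was -0.0646 with DESeq2 size factors, -0.0515 with at least 10 counts in every library, -0.0187 with only the libraries compared, -0.0089 without the 4 libraries that stood apart, -0.0666 with DESeq2 and -0.0647 with betaPrior=TRUE. Intermediate RMA-KR against intermediate RMA was 0.0474 without those 4, beside -0.16 with them. With a library left out, Tox4 ran from -0.0684 to 0.11 in intermediate against early RMA, -0.0145 to 0.11 in intermediate RMA-KR against control, -0.0587 to 0.24 in early RMA-KR against early RMA, -0.14 to 0.0261 in late against intermediate RMA and -0.0874 to 0.39 in the difference between courses.

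Replicate numbers do not pair the libraries: over 64 pairs with the same number the correlation of deviations ran from -0.118 to 0.202, and 6 of 24 libraries deviated most like their own number. With the replicate block Tox kept its calls in late RMA-KR against control (1.08, adjusted p = 0.0376), in the RMA-KR course against the RMA course (0.71, adjusted p = 0.0328) and over the 7 groups (adjusted p = 0.0239), and no other member result changed its call.

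Counts of related list genes that pass depended on the tool. In the order early, intermediate and late RMA, then early, intermediate and late RMA-KR against control, early, intermediate and late RMA-KR against RMA, both RMA steps, both RMA-KR steps and the difference between courses, they were 0, 2, 6, 0, 0, 1, 1, 1, 0, 3, 0, 1, 3 and 0. They became 0, 2, 6, 0, 0, 4, 1, 1, 0, 4, 0, 1, 3 and 0 with DESeq2 size factors, 5, 5, 9, 1, 2, 10, 4, 5, 1, 8, 0, 11, 9 and 3 without a filter, 0, 4, 8, 0, 0, 6, 3, 2, 0, 5, 0, 3, 3 and 0 with at least 10 counts, 2, 6, 11, 3, 0, 10, 4, 4, 1, 10, 0, 7, 7 and 3 with DESeq2, and 1, 6, 9, 2, 0, 10, 3, 4, 0, 8, 0, 2, 7 and 2 with betaPrior=TRUE. Counts over all genes moved with the tool as well. In the same order, edgeR's test as described called 0, 401, 455, 17, 3, 208, 58, 110, 0, 399, 0, 108, 56 and 0 of all genes. DESeq2 called 76, 955, 1054, 212, 41, 663, 437, 444, 67, 1363, 41, 708, 345 and 159. With betaPrior=TRUE it called 32, 889, 990, 167, 36, 580, 328, 308, 16, 1130, 0, 592, 248 and 78. Over the settings, 103 to 663 of all genes passed in late RMA-KR against control (208 in edgeR's test as described), 56 to 663 in the RMA-KR against the RMA course (129), 289 to 1054 in late RMA against control (455) and 0 to 67 in late RMA-KR against late RMA (0). The test over the 7 groups has no value with betaPrior=TRUE, and restricting it to the groups compared does not apply. Tox2 and Tox3 were at or under 3 reads in most libraries, and whether depth limits them was not tested.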
